A study of Mus musculus with 6 samples.

Results

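The genes described here are 10 mouse chemokine genes, Ccl2, Ccl7, Ccl20, Cxcl1, Cxcl2, Cxcl5, Cxcl10, Cxcl12, Cxcl16 and Cx3cl1, out of 18193 genes measured. They were taken as the probe sets whose platform annotation names one of these symbols and no other gene, which gave 18 of the 45101 probe sets on the array. A probe set is a group of short probes that reads 1 stretch of a transcript, and for a gene with several, the one with the highest mean signal was used unless another is named. The genes were picked with results from the same arrays already known, Ccl2 and Cxcl5 above all, so their differences between lines are a description and carry no test of their own.

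The signals come from 6 Affymetrix mouse arrays of 3 cell lines of hepatocellular carcinoma, a cancer of hepatocytes. BL185 is the parent line, and M1 and I1 are subclone lines of it, obtained as subpopulations selected for migration. All were grown in DMEM with fetal bovine serum, and no treatment is named. Each line was read on 2 arrays, which the labels do not describe as separate cultures, so the spread between them may be technical. No subclone made without selection was measured, so selection and subcloning cannot be told apart in any difference from BL185. Values are log2 signals, on which a difference of 1 is a doubling.

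Chemokines are small secreted or membrane-bound proteins that guide cells along a gradient by binding G protein-coupled receptors. Ccl2 and Ccl7 act on Ccr2 and draw monocytes out of the blood, Cxcl1, Cxcl2 and Cxcl5 act on Cxcr2 and draw neutrophils, and Cx3cl1 binds Cx3cr1 on monocytes. In liver and its tumours these ligands are made by epithelial, stellate and immune cells, and many of them are switched on by the NF-kB transcription factors after inflammatory signals. Ccl20 acts on Ccr6, Cxcl10 on Cxcr3, Cxcl12 on Cxcr4 and Ackr3, and Cxcl16 on Cxcr6.

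The arrays were not equally alike. Between its 2 arrays M1 varied by 0.65 (SD, log2), I1 by 0.16 and BL185 by 0.10. Signals on M1 replicate 1 were the least spread, with an SD over all probe sets of 1.62 where the other arrays had 1.83 to 1.97. Values with and without that array are therefore given for M1. The array medians lay between 7.87 and 8.11. No detection calls were used, and a signal near or under that level is taken here as one that cannot be told from background. A fold measured against such a signal is not exact. Among markers of the labelled cell type, the epithelial keratins Krt8 and Krt18 read 14.78 to 15.23 and the liver transcription factor Hnf4a 11.94 to 13.34 on all arrays, whereas albumin, Alb, read 7.53 to 8.43. Of 8 hepatocyte and liver cancer markers measured, 5 were above the median of every array, among them Krt8 and Krt18. Alb, Afp (7.14 to 9.89) and Apoa1 (7.42 to 9.27) were not, and each was highest on M1 replicate 1.

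The sequence just before the transcription start was available from RefSeq (assembly GRCm38.p6) for 6 of the 10 genes, Ccl20, Cxcl1, Cxcl2, Cxcl10, Cxcl12 and Cx3cl1. The 4 shown here are those that hold the letters GGG, any 3 bases and TTCC, or the reverse complement (GGAA, any 3 bases and CCC), a short form of the NF-kB site, within the 250 bases before the start. They are set side by side because Cxcl1 and Cxcl2, neighbours on the chromosome, carry the same stretch. Capitals mark the matches, and each run reads 5′ to 3′ on the gene's strand, from chr5:90890995-90891244 (plus strand) for Cxcl1, chr5:90903649-90903898 (plus strand) for Cxcl2, chr5:92348890-92349139 (minus strand) for Cxcl10 and chr1:83116516-83116765 (plus strand) for Ccl20.
Cxcl1: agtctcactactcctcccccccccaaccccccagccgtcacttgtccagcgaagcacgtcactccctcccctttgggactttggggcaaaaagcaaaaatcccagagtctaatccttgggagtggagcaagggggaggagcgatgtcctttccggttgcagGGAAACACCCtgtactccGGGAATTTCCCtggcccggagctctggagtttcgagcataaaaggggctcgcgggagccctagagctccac
Cxcl2: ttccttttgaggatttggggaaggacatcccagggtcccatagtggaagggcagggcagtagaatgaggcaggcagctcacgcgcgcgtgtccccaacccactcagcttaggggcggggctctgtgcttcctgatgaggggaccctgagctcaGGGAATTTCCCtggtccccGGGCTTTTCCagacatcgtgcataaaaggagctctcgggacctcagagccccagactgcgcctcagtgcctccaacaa
Cxcl10: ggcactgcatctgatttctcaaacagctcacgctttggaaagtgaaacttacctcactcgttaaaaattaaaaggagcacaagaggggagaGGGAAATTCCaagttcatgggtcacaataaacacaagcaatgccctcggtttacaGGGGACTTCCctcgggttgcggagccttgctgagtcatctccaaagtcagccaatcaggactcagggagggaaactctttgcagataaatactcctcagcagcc
Ccl20: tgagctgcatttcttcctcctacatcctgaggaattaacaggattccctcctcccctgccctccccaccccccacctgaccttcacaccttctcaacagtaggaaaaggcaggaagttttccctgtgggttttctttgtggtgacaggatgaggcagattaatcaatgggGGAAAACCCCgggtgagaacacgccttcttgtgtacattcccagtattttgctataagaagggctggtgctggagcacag

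In Cxcl1 the stretch GGGAATTTCCC lay 71 to 61 bases before the start, where the forward and reverse patterns overlap, with a further match, GGAAACACCC, at 89 to 80. Cxcl2 held GGGAATTTCCC at 97 to 87 and GGGCTTTTCC at 78 to 69. Cxcl10 held GGGAAATTCC at 159 to 150 and GGGGACTTCC at 104 to 95, and Ccl20 held GGAAAACCCC at 80 to 71. The windows of Cxcl12 and Cx3cl1 held 0 matches. Of all 32851 windows of this length in the RefSeq table, 4.65% held at least 1 match. The pattern was chosen after the sequences had been read, and a match says nothing of whether a factor binds there.

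Among the monocyte-attracting ligands, Ccl2 stood far above the parent line in both subclone lines. The parent arrays gave log2 signals of 7.98 and 7.73, those of M1 gave 11.55 and 12.35, and those of I1 gave 10.54 and 10.82. The 3 lines did not overlap, with M1 highest, I1 between and BL185 lowest. The means differed by 4.09 ± 0.31 between M1 and BL185, a ratio of 17.0, and by 2.82 ± 0.31 between I1 and BL185, a ratio of 7.08 (SE of the fit across all genes, n = 2 arrays a line). The BL185 signals lay beside the array medians, so both ratios are inexact. M1 replicate 1 alone stood 3.69 above the BL185 mean and M1 replicate 2 alone 4.49. I1 lay 1.27 ± 0.31 below M1 (SE, n = 2), a ratio of 2.41, with both I1 arrays under both M1 arrays.

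Ccl7, a second Ccr2 ligand and the next gene along from Ccl2, showed nothing similar. It read 7.39 and 7.38 in BL185, then 7.25 and 7.54 in M1, then 7.57 and 7.45 in I1, under the median of every array. At this level signal cannot be told from background. The differences were 0.01 ± 0.19 in M1 and 0.13 ± 0.19 in I1 (SE, n = 2).

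Cx3cl1, a membrane-anchored chemokine that is shed by metalloproteinases, was the one ligand of this group with a lower signal in M1. Its brightest probe set read 9.86 and 9.97 in BL185, then 8.98 and 9.27 in M1, then 9.73 and 9.76 in I1. Both M1 arrays lay under all others, by 0.79 ± 0.19 against BL185 (SE, n = 2). The difference was 0.17 ± 0.19 in the same direction for I1. The other probe sets of Cx3cl1 did not share it. The second, 1415804_at, differed by -0.04 in M1, and the remaining 2, most of whose values lay under the array medians, by 0.13 and 0.43. Over the mean of all 4, the M1 difference was -0.07.

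**Figure D1:**
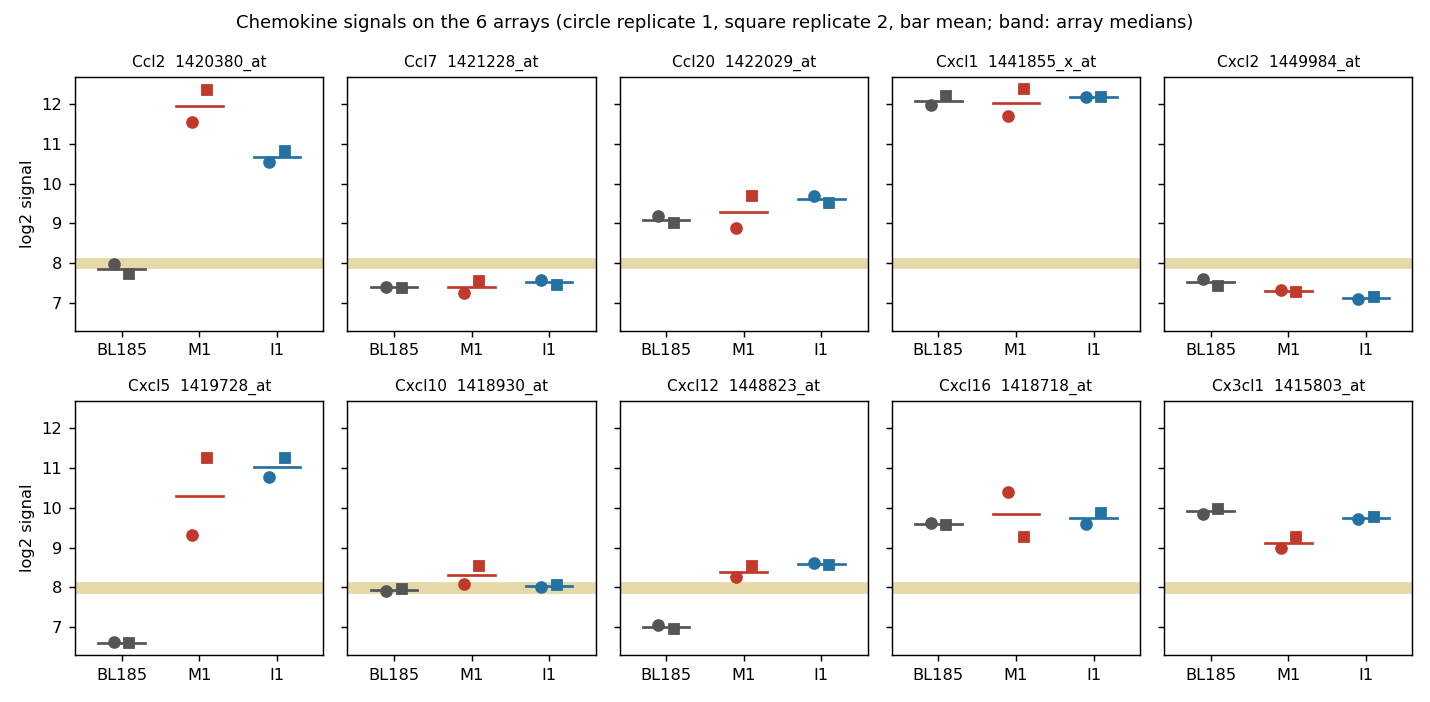
Log2 signal (vertical axis) of each of the 10 chemokine genes on the 2 arrays of BL185, M1 and I1, by the probe set named above each panel. Circles are replicate 1, squares replicate 2, bars the mean, and the band spans the array medians of 7.87 to 8.11. Ccl2 and Cxcl5 leave the band or the region under it in both subclone lines, whereas Ccl7 and Cxcl2 stay under it.

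Among the neutrophil-attracting ligands, Cxcl5 had the largest difference of the 10 genes in I1. It read 6.62 and 6.59 on the BL185 arrays, well under the medians, against 9.33 and 11.25 in M1 and 10.79 and 11.25 in I1. All 4 subclone arrays were above both parent arrays, and the M1 arrays straddled a wide range that the I1 arrays overlapped. The difference was 3.69 ± 0.63 in M1 and 4.41 ± 0.63 in I1 (SE, n = 2), ratios of 12.9 and 21.3 that are inexact because the parent signal cannot be told from background. M1 replicate 1 stood 2.73 above the BL185 mean and M1 replicate 2 stood 4.65 above it, so the M1 ratio is 6.63 on one array and 25.1 on the other. I1 minus M1 was 0.73 ± 0.63 (SE, n = 2).

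Cxcl1, the closest mouse counterpart of the human GRO chemokines, gave different answers from its 3 probe sets. The probe set 1419209_at read 9.26 and 9.02 in BL185, then 10.93 and 12.02 in M1, then 11.33 and 11.48 in I1, so that all 4 subclone arrays were higher. The differences were 2.33 ± 0.38 in M1 and 2.27 ± 0.38 in I1 (SE, n = 2), ratios of 5.05 and 4.82. The probe set 1457644_s_at read 10.13 and 10.18 in BL185, then 11.79 and 12.56 in M1, then 12.37 and 12.30 in I1, with differences of 2.02 ± 0.28 and 2.18 ± 0.28. These signals were well above the medians on every array, including those of the parent line.

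The brightest Cxcl1 probe set, 1441855_x_at, showed no such step. It read 11.97 and 12.21 in BL185, then 11.69 and 12.39 in M1, then 12.19 and 12.18 in I1, with differences of -0.05 ± 0.28 and 0.10 ± 0.28 (SE, n = 2). In Affymetrix naming the ending x_at marks a probe set with probes that can also match other transcripts, and s_at one whose probes match several transcripts. Which transcripts these probes read here was not tested. Because the brightest probe set stood for the gene, Cxcl1 counts as flat in every count of genes below. It would count as higher in both lines by the probe set 1419209_at.

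Cxcl2, whose start lies beside that of Cxcl1 and whose window holds the same GGGAATTTCCC stretch, was lower by a little in both lines. It read 7.60 and 7.42 in BL185, then 7.32 and 7.28 in M1, then 7.10 and 7.15 in I1. The arrays of the 3 lines did not overlap, but all 6 values were under the array medians, and the differences of -0.21 ± 0.17 in M1 and -0.39 ± 0.17 in I1 (SE, n = 2) lie where signal cannot be told from background.

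**Figure D2:**
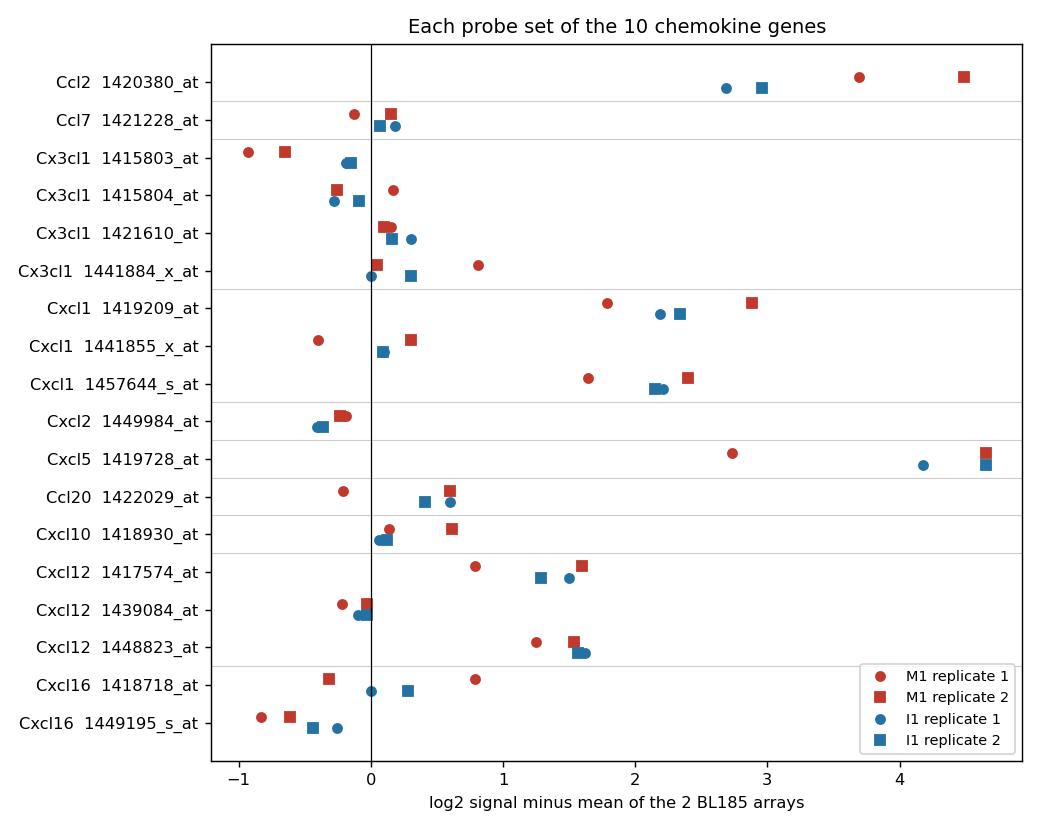
Log2 signal minus the mean of the 2 BL185 arrays (horizontal axis) for each of the 18 probe sets of the 10 genes, with circles for replicate 1 and squares for replicate 2 of M1 (red) and I1 (blue). For Cxcl1 and Cxcl12, 2 of 3 probe sets lie well to the right of zero and the third does not.

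Of the ligands that act mainly on lymphocytes and stem cells, Cxcl12 was higher in both subclone lines. Its probe set 1448823_at read 7.05 and 6.95 in BL185, then 8.25 and 8.54 in M1, then 8.62 and 8.57 in I1. All 4 subclone arrays lay above the parent, from under the array medians to a little above them, by 1.40 ± 0.19 in M1 and 1.59 ± 0.19 in I1 (SE, n = 2). A second probe set, 1417574_at, gave 1.20 ± 0.30 and 1.40 ± 0.30, whereas 1439084_at stayed between 7.59 and 7.92 on all arrays and gave -0.12 and -0.06. The levels of the first 2 were low, and with the mean of all 3 probe sets the differences were 0.82 and 0.98.

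Ccl20, which draws Ccr6-bearing dendritic and T cells, read 9.18 and 9.0 in BL185, then 8.88 and 9.69 in M1, then 9.70 and 9.50 in I1. The I1 arrays lay above BL185 by 0.51 ± 0.31 (SE, n = 2), and the M1 arrays fell on either side of the parent. Cxcl10, an interferon-induced ligand of T cells, read 7.92 and 7.97 in BL185, then 8.08 and 8.55 in M1, then 8.01 and 8.06 in I1. It was thus near the array medians throughout, with a difference of 0.37 ± 0.22 in M1 and 0.09 ± 0.22 in I1.

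Cxcl16, the second membrane-anchored ligand, read 9.61 and 9.58 in BL185, then 10.39 and 9.28 in M1, then 9.59 and 9.88 in I1 by its brighter probe set. The M1 arrays lay on both sides of BL185 and the difference was 0.24 ± 0.39. Its other probe set, 1449195_s_at, read 8.33 and 8.23, then 7.45 and 7.67, then 8.02 and 7.84, so that M1 was lower by 0.72 ± 0.17 and I1 lower by 0.35 ± 0.17 (SE, n = 2). In both lines the direction for Cxcl16 therefore turned with the probe set.

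Counted together, 4 of the 10 genes had both M1 arrays above both BL185 arrays and 2 had both below, where 26.2% and 25.7% of all genes did. For I1 the counts were 6 above and 2 below, where 42.6% and 33.5% of all genes did. Between I1 and M1 they were 2 above and 3 below, where 8.13% and 7.96% did. A log2 difference of at least 1 was seen upward for 3 of the 10 in each line (Ccl2, Cxcl5 and Cxcl12), against 2.70% of all genes in M1 and 2.45% in I1, and downward for 0, against 10.6% and 5.82%. Between I1 and M1 it was seen upward for 0, against 1.42%, and downward for 1, Ccl2, against 0.104%. The median difference of the 10 was 0.22 in M1 and 0.13 in I1, beside 0.07 and 0.06 over all genes. The M1 medians were 0.45 and 0.03 without M1 replicate 1. Both comparisons use the same BL185 arrays, and the genes were chosen with these values known, so nothing is read from the counts.

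By limma with Benjamini-Hochberg adjustment over all genes, 1 of the 10, Ccl2, was called at 0.05 between M1 and BL185, as were 0.879% of all genes (50 higher and 110 lower). Ccl2 was also the 1 that passed in I1, where 0.511% did (35 higher and 58 lower). Of all calls 31.2% were higher in M1 and 37.6% in I1 as deposited, 46.3% and 49.5% after cyclic loess, 53.8% and 62.0% after quantile normalization, and 8.77% and 8.70% after median centring. Between I1 and M1, 0 of the 10 and 0% of all genes passed. At an unadjusted p under 0.05 stood 4 of the 10 in M1 against 15.4% of all genes, 3 in I1 against 11.6%, and 2 between the lines against 2.25%. The 10 were picked with results of these arrays known, so their calls, here and below, are a description and not a test of them.

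The pooled spread in this fit is set largely by M1. A fit with an array left out leaves that line with 1 array, which is assumed to vary like the other lines. Calls from such fits are therefore not findings about a line. Without M1 replicate 1, 5 of the 10 were higher in M1 (Ccl2, Ccl20, Cxcl5, Cxcl10 and Cxcl12) and 1 lower (Cx3cl1), where 11.7% and 12.3% of all genes were. In I1, 4 were then higher (Ccl2, Ccl20, Cxcl5 and Cxcl12) and 1 lower (Cxcl2), where 22.5% and 24.1% were. Between I1 and M1, Cx3cl1 and Cxcl16 were then higher and Ccl2 and Cxcl10 lower, where 7.20% and 13.4% of all genes were, 20.6% in all. With M1 replicate 2 left out in its place, 12879 of all genes were called in M1, 8481 in I1 and 10365 between the lines. The call for Ccl2 in M1 was lost without either BL185 array and without either I1 array, and that in I1 without any one of the BL185 or I1 arrays. In those fits 0 genes of all passed.

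Ccl2 and Cxcl5 lie in clusters of chemokine genes, whose other genes are given here for their position. On chromosome 11 the RefSeq order is Ccl2, Ccl7, Ccl11, Ccl12, Ccl8 and Ccl1. Beside the 4.09 and 2.82 of Ccl2, the eosinophil chemokine Ccl11 differed by 0.23 in M1 and 0.18 in I1, the Ccr2 ligand Ccl12 by 0.27 and 0.11, Ccl8 by 0.24 and 0.20, and Ccl1 by 0.50 and 0.51. None of these 4 passed the test in either line, with limma adjusted p from 0.454 to 0.501 in M1 and from 0.657 to 0.811 in I1. Ccl11 and Ccl12 lay under the median of every array, where signal cannot be told from background, and Ccl8 and Ccl1 lay near the medians. Above the BL185 mean, Ccl11, Ccl12, Ccl8 and Ccl1 stood 0.40, 0.43, 0.37 and 0.88 on M1 replicate 1. On M1 replicate 2 they stood 0.06, 0.11, 0.12 and 0.13 above it.

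On chromosome 5 the order is Cxcl5, Ppbp, Pf4, Cxcl3, Cxcl15, Cxcl1 and Cxcl2. The platelet chemokines Ppbp and Pf4 differed by 0.21 and 0.22 in M1 and by -0.10 and 0.15 in I1. Both lay under the median of every array, where signal cannot be told from background. M1 replicates 1 and 2 differed from the BL185 mean by -0.10 and 0.53 for Ppbp and by 0.53 and -0.08 for Pf4. Cxcl3, another Cxcr2 ligand, read 7.05 and 6.97 in BL185, then 7.19 and 8.91 in M1, then 8.84 and 8.54 in I1. Both I1 arrays and M1 replicate 2 stood clear of the parent, and M1 replicate 1 did not. Its differences of 1.04 ± 0.56 in M1 and 1.68 ± 0.56 in I1 did not pass (limma adjusted p = 0.421 and 0.342). Cxcl15 read 7.49 and 7.34 in BL185, then 8.46 and 8.89 in M1, then 7.96 and 7.64 in I1, and its M1 difference of 1.26 ± 0.23 did not pass either (limma adjusted p = 0.0963).

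**Figure D3:**
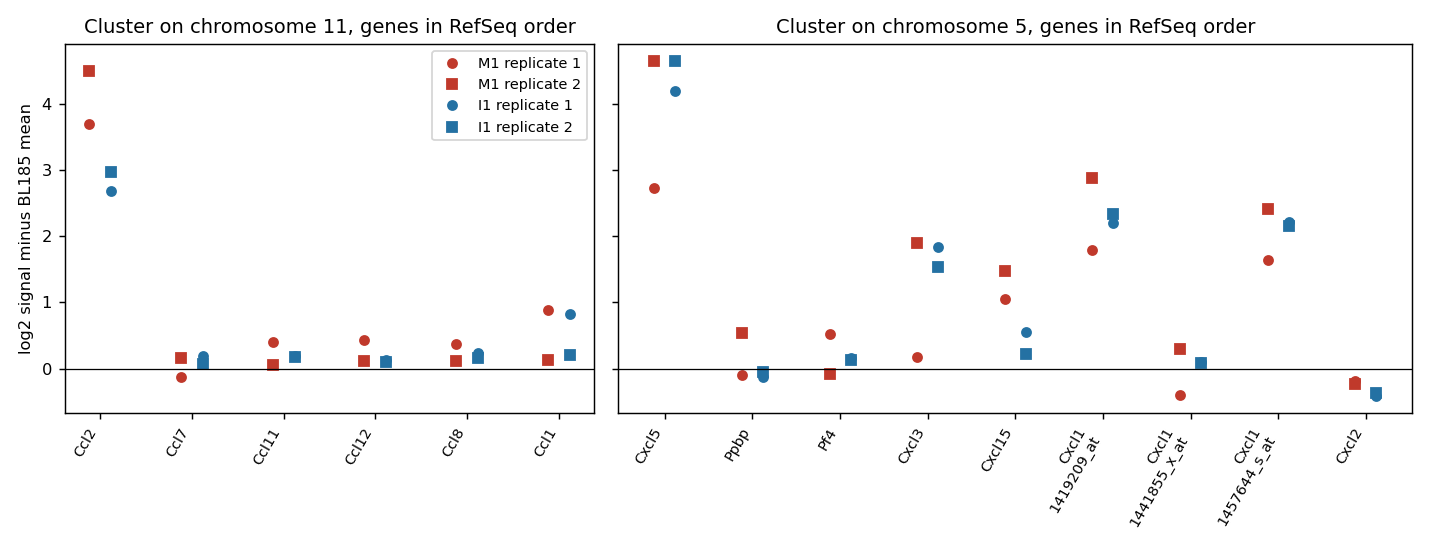
Log2 signal minus the BL185 mean (vertical axis) for the genes of the chemokine clusters on chromosomes 11 and 5, in RefSeq order and not to scale, with the 3 probe sets of Cxcl1 shown apart. Circles are replicate 1 and squares replicate 2 of M1 (red) and I1 (blue); Ccl2 and Cxcl5 stand above their neighbours, and Cxcl2 lies below zero.

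The genes around these ligands were followed in 6 lists: other chemokine ligands, chemokine receptors, NF-kB factors and feedback genes, inducing cytokines and their receptors, proteases and proteoglycans that act on chemokines, and mRNA decay and interferon factors. Of the 127 genes measured in them, 0 passed the limma test over all genes in either line or between the lines. At an unadjusted p under 0.05 stood 11 higher and 8 lower in M1, 11 higher and 4 lower in I1, and 3 higher and 1 lower between I1 and M1, where 15.4%, 11.6% and 2.25% of all genes did in either direction. Taken in either direction, the shares of the 127 in M1 and I1 were thus near the background. By direction they differed from it. Of all 18193 genes, 714 were higher and 2084 lower in M1, and 760 higher and 1359 lower in I1. Most genes at that p were thus lower, whereas most of the 127 at that p were higher. The lists were chosen with earlier results known, so nothing is read from this. For the fit without M1 replicate 1, the shares of all genes called higher and lower are given with the chemokine members above. Counts from that fit, here and for each list below, are not read as results about the lists. Without M1 replicate 1, 24 were called higher and 11 lower in M1, and 35 higher and 19 lower in I1. The background there was 24.0% and 46.6% of all genes.

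Other chemokine ligands had a median difference of 0.23 in M1 and 0.19 in I1 over 25 genes. The M1 median was 0.10 when M1 replicate 1 was left out, and then 5 of them were called higher and 1 lower in M1, and 9 higher and 1 lower in I1. Chemokine receptors had medians of 0.21 and 0.17 over 22 genes. Without that array the M1 median was 0.00, and 1 was called higher in M1 and 4 in I1, with 0 lower. Most receptors of the 10 ligands gave signals that cannot be told from background. Cxcr4, the main receptor of Cxcl12, read 6.66 to 6.90, Cxcr6 read 6.93 to 7.16 and Cx3cr1 read 7.29 to 7.51, all under the medians of every array. Ccr6 read 7.83 to 8.24 and Cxcr3 7.80 to 8.25, near the medians.

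Ccr2, the receptor of Ccl2 and Ccl7, read 10.08 on both BL185 arrays, 10.70 and 10.03 in M1 and 10.60 and 10.02 in I1, so the lines overlapped (0.28 ± 0.32 and 0.23 ± 0.32). Cxcr2, the receptor of Cxcl1, Cxcl2 and Cxcl5, read 8.02 and 8.10, then 9.53 and 7.94, then 8.39 and 8.38, where the high value is that of M1 replicate 1. Ackr3, which scavenges Cxcl12, read 10.85 and 10.52 in BL185, then 8.64 and 10.57 in M1, then 10.94 and 10.97 in I1. Its low M1 mean came from M1 replicate 1. None of the 3 passed the limma test (adjusted p from 0.431 to 0.594 in M1 and from 0.784 to 0.863 in I1).

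NF-kB factors and feedback genes had medians of -0.13 in M1 and 0.12 in I1 over 20 genes, and of 0.21 in M1 without M1 replicate 1. In that fit 7 were called higher and 2 lower in M1, and 3 higher and 6 lower in I1. Nfkbia, the inhibitor that NF-kB itself induces, read 12.76 and 12.64 in BL185, then 13.34 and 13.54 in M1, then 13.38 and 13.55 in I1. All 4 subclone arrays were above the parent, but the differences of 0.74 ± 0.18 and 0.77 ± 0.18 did not pass (limma adjusted p = 0.167 and 0.193). Rela, the main activating subunit, was lower on all 4, by 0.55 ± 0.28 in M1 and 0.69 ± 0.28 in I1, which did not pass either (limma adjusted p = 0.404 and 0.435). Tnfaip3, a feedback inhibitor, read 10.98 ± 0.03 in BL185 (SD, n = 2), then 9.53 and 11.33 in M1, then 11.13 and 11.51 in I1, so M1 replicate 1 stood lowest.

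Of the inducing cytokines named for their role, Il1a read 6.99 to 7.31 and Il6 6.26 to 6.97, under the array medians throughout. They do not stand for every inducer. Tnf and Il1b are added after their values were seen. Tnf read 8.24 to 9.42, above the median of every array, and Il1b 7.41 to 8.47, near the medians. The list's medians were 0.01 in M1 and 0.06 in I1 over 26 genes, with 3 higher and 5 lower in M1 and 7 higher and 6 lower in I1 once M1 replicate 1 was left out. Csf1, the macrophage growth factor, read 10.26 and 10.28 in BL185, then 10.29 and 11.58 in M1, then 10.57 and 10.65 in I1, with differences of 0.66 ± 0.43 and 0.34 ± 0.43 (limma adjusted p = 0.447 and 0.769).

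The sheddases that release Cx3cl1 and Cxcl16 were expressed in all lines. Adam10 read 12.48 and 12.36 in BL185, then 11.81 and 12.78 in M1, then 12.77 and 12.97 in I1, and Adam17 stayed between 10.85 and 11.27. Dpp4, which clips Cxcl12 and Cxcl10, read 7.65 to 7.82, under every array's median. The protease and proteoglycan list had medians of 0.00 in M1 and 0.36 in I1 over 17 genes. Without M1 replicate 1 the M1 median was 0.21, and 3 were called higher and 0 lower in M1, and 9 higher and 2 lower in I1.

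Of the mRNA decay and interferon factors, Zfp36, which speeds the decay of chemokine messages, read 10.11 and 9.96 in BL185, then 9.58 and 10.19 in M1, then 10.88 and 10.73 in I1. Its I1 difference of 0.76 ± 0.25 did not pass (limma adjusted p = 0.34). Zc3h12a, an RNase with the same targets, read 7.66 to 8.29, near the medians. Irf1, an interferon-responsive factor upstream of Cxcl10, was higher on all 4 subclone arrays, by 0.69 ± 0.18 and 0.60 ± 0.18 (limma adjusted p = 0.183 and 0.272). The list's medians were -0.15 and 0.02 over 17 genes. Without M1 replicate 1 the M1 median was 0.09, and 5 were called higher and 3 lower in M1, and 3 higher and 4 lower in I1.

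**Figure D4:**
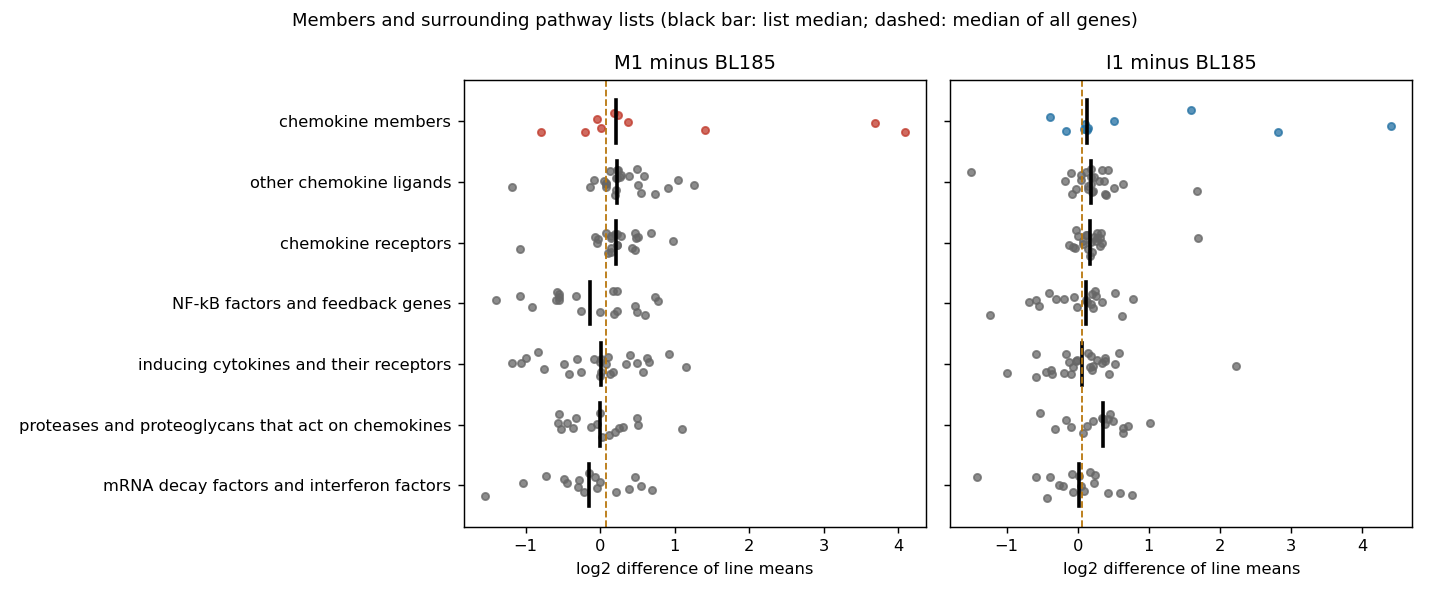
Log2 difference from BL185 (horizontal axis) of every measured gene of the 10 chemokine members and of 6 surrounding lists, for M1 (left) and I1 (right). Black bars are list medians and the dashed line is the median of all genes (0.07 and 0.06); Ccl2 and Cxcl5 lie to the right of every list gene in both lines.

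Markers of immune cells that could themselves make these ligands were measured beside them. Ptprc, carried by all leukocytes, read 6.25 on both BL185 arrays and 6.27 to 7.17 on the others, and Itgam 6.70 to 7.32, under every array's median. Cd68 and Cd53 fell in M1, by 3.21 ± 0.21 and 1.66 ± 0.21 (limma adjusted p = 0.0147 and 0.0469), and Cd68 fell by 3.05 ± 0.21 in I1 (adjusted p = 0.0262). Of the 12 leukocyte markers, 5 were above the median of every array and 2, Ptprc and Itgam, under it on every array. Called higher in either line were 0. The 5 were Adgre1, Csf1r, Cd14, Lyz2 and Laptm5. Their differences were 0.04, 0.50, -0.01, 0.61 and 0.69 in M1, and 0.10, 0.30, 0.77, 0.49 and 0.49 in I1. On M1 replicate 2 alone they were 0.02, -0.13, 0.56, 0.20 and 0.22. The median difference of the 12 was 0.34 in M1 and 0.26 in I1, and 0.02 in M1 without M1 replicate 1. Both arrays lay above both BL185 arrays for 5 of the 12 in M1 and 9 in I1, where 26.2% and 42.6% of all genes did. They lay below for 2 and 3, where 25.7% and 33.5% of all genes did. Without M1 replicate 1, 1 was called higher in M1 and 5 in I1, and 2 lower in each. Their summed linear signal ranged from 7423 to 7531 in BL185, 6752 to 7202 in M1 and 7599 to 8372 in I1. For 10 fibroblast markers the sums were 2554 to 2711, 2951 to 3889 and 3212 to 3342, and for 8 endothelial markers 1594 to 1689, 1904 to 2428 and 1940 to 1997, with 0 called in either list. Leaving out M1 replicate 1, 5 fibroblast and 3 endothelial markers were called higher in I1 and 0 in M1, with 0 lower. As given above, that fit called large shares of all genes in both lines, so the marker counts from it are not read as results. Of the fibroblast and endothelial markers, 4 and 2 were above the median of every array, and 4 and 5 at or under it. The fibroblast and endothelial sums were higher in both subclone lines, as Ccl2 and Cxcl5 were, but by far less. The median difference was 0.31 in M1 and 0.25 in I1 for fibroblast markers, and 0.18 in each for endothelial markers. Without M1 replicate 1 the M1 medians were 0.12 and 0.08. What part these marker signals have in the chemokine differences was not tested.

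The genes with the pattern most like that of Ccl2 were found as the smallest distance between the 6 array values of 2 genes, each centred on its BL185 mean. They were the secreted factor Ndnf (distance 0.94 log2 units), the xylosyltransferase Gxylt2 (0.98), the proliferation marker Mki67 (1.03), the replication factor Pclaf (1.31) and the mitotic gene Cdca3 (1.39). Ndnf shared the order of the lines, at 3.77 and 5.14 above BL185 in M1 and 2.06 and 2.80 in I1. For Cxcl5 they were Fstl1 (0.84), Gxylt2 (1.63), Cdca3 (1.90), Shcbp1 (2.25) and Mki67 (2.32). Fstl1, a secreted glycoprotein, stood 3.45 and 4.56 above BL185 in M1 and 4.54 and 4.83 in I1, so it shared the low value of Cxcl5 on M1 replicate 1. Gxylt2, Cdca3, Shcbp1 and Mki67 were also lower on M1 replicate 1 than on M1 replicate 2. Ccl2 ranked 8 from Cxcl5, and Cxcl5 ranked 23 from Ccl2, at a distance of 2.46.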

How the data were processed

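RNA of BL185, M1 and I1 cells, taken up in Trizol and labelled with a 3′ IVT kit per the labels' protocols, was read on Affymetrix mouse arrays, 2 for each line. The values the authors deposited are log2 signals per probe set, made with RMA and affy per the submitters' processing notes. Their versions, settings and genome build are not stated there. The SDs of the arrays as deposited ranged from 1.62 to 1.97, so the arrays do not share 1 distribution of signals. That the scale is log2 was read from the range of the values, and with 6 arrays precision is limited by their number.

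Of 45101 probe sets, 34945 named 1 gene, 932 named several and 64 were controls. Entrez identifiers matched 34741 of them to RefSeq (GRCm38.p6), and 0 symbols changed. The brightest probe set stood for each of 18193 genes. Unused columns numbered 0. Groups and replicate numbers were read from sample titles. All 6 arrays entered 1 model with a mean for each line (limma 3.58.1, R 4.3.3), with 3 residual and 2.27 prior degrees of freedom. Its 3 contrasts were adjusted by Benjamini-Hochberg over all genes at 0.05, and SEs are from this model, or from the same model over probe sets where a probe set is named. The model was tested on simulated data. Tables and figures were made with Python 3.11.15, pandas 2.3.3, numpy 2.4.6 and matplotlib 3.10.9. Alternatives changed the scaling, filter, probe set, block, weights or arrays.

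The 10 genes and all lists were chosen with earlier results of these data known. Named genes were the 10, called list genes (up to 4 per list and contrast), a set list of receptors and regulators, and the 5 nearest patterns of Ccl2 and of Cxcl5. List genes that no probe set names alone, such as Nfkb1, were not analysed here.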

Additional observations from a re-analysis of the deposited data

How the results depend on the processing

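Ccl2, Cxcl5 and Cxcl12 were higher than BL185 in both subclone lines, and Cxcl2 lower, under every alternative that gave a value, including the 3 other scalings and each array left out. In M1 the difference ranged from 3.69 to 4.52 for Ccl2, 2.73 to 4.65 for Cxcl5, 0.82 to 1.54 for Cxcl12 and -0.41 to -0.12 for Cxcl2. In I1 it ranged from 2.59 to 3.04, 3.85 to 4.65, 0.98 to 1.64 and -0.49 to -0.30. Cxcl1 ranged from -0.40 to 2.33 in M1 and -0.02 to 2.27 in I1, its high values coming from the choice of probe set. Ccl7, Ccl20 and Cxcl16 changed sign in M1, as did Cxcl10, Cxcl16 and Cx3cl1 in I1. Ccl2 was called in 14 of 19 alternatives in M1 and 10 of 19 in I1, and Cxcl5 in 6 and 7 of 19. Of 561 member differences under alternatives, 490 moved by less than 1 SD between arrays and 71 by more. Many alternatives leave a difference as it was by design. The eBayes settings, the replicate block, the array weights and the fit of only the arrays compared are such. A change of probe set likewise cannot move a gene with 1 probe set. The 490 are therefore no measure of how stable the differences are. Median centring turned the median of all genes in M1 from 0.067 to -0.059.

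Counts over all genes depended on the setting, and where not stated the cause was not tested. For M1 against BL185 (160 genes) the count was 338 with the mean of all probe sets, 1831 after cyclic loess, 1176 after quantile normalization, 57 after median centring, 312 with array weights, 0 with only the arrays of the lines compared, and 0 to 12879 with each array left out. For I1 (93 genes) it was 1544 after cyclic loess, 981 after quantile normalization, 23 after median centring, 8551 with array weights, 8481 with only the arrays of the lines compared, and 0 to 8481 with each array left out. Between I1 and M1 (0 genes) it was 1 with a minimum mean of 8, 51 after cyclic loess, 6 after quantile normalization, 2 with array weights and 0 to 10365 with each array left out. Of the pathway list genes (0 in each), M1 had 1 with the mean of all probe sets, 11 after cyclic loess, 9 after quantile normalization and 0 to 84 with an array left out. I1 had 8 after cyclic loess, 6 after quantile normalization, 54 with array weights or with only the arrays compared, and 0 to 54 with an array left out, and I1 against M1 had 0 to 66. Where a line is left with 1 array, that array is assumed to vary like the other lines, and it adds nothing to the estimated spread. For I1 against BL185, leaving out either M1 array is therefore the same fit as only the arrays of the lines compared.

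The deviations of same-numbered arrays correlated at -0.13 for BL185 and M1, 0.16 for BL185 and I1 and 0.37 for M1 and I1. Not every pair of lines was positive, so the numbers are not taken to pair the arrays. With the replicate block 38 genes passed in M1, 1 in I1 and 0 between the lines, and Ccl2 passed in M1 but not in I1. With the BL185 numbers crossed, an alternative chosen after seeing the data, the replicate block gave 76, 0 and 0.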

Other observations

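A few genes of the surrounding lists are given here, chosen after their values were seen, since each differed from BL185 by more than 1 on the log2 scale in both lines. Il33, an alarmin stored in the nucleus that acts on innate lymphoid cells, read 11.13 and 10.92 in BL185, then 11.72 and 12.64 in M1, then 13.17 and 13.35 in I1. The lines did not overlap. The M1 difference was 1.15 ± 0.34 and the I1 difference 2.23 ± 0.34 (SE, limma adjusted p = 0.224 and 0.0866). M1 replicate 1 stood 0.69 above the BL185 mean and M1 replicate 2 stood 1.61 above it. Ccl25, a chemokine known from thymus and gut, was lower on all 4 subclone arrays, reading 10.17 and 9.75 in BL185, then 8.82 and 8.72 in M1, then 8.55 and 8.36 in I1. Its differences were -1.19 ± 0.22 and -1.50 ± 0.22 (limma adjusted p = 0.0926 and 0.0773). Irf9, an interferon-response transcription factor, read 9.44 and 9.37 in BL185, then 7.63 and 8.07 in M1, then 7.92 and 8.07 in I1, differences of -1.55 ± 0.22 and -1.41 ± 0.22 (limma adjusted p = 0.0577 and 0.0896). None of the 3 passed the threshold over all genes. Cxcl3, given above, Traf6 and Gpc1 also differed by more than 1 in both lines. Traf6 differed by -1.08 in M1 and -1.23 in I1 (limma adjusted p = 0.322 and 0.353). For Gpc1 the differences were 1.10 and 1.02 (limma adjusted p = 0.216 and 0.297).

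Ackr4, a scavenger of Ccl19, Ccl21 and Ccl25, read 7.91 and 7.61 in BL185, then 7.45 and 10.03 in M1, then 9.01 and 9.89 in I1. As with Cxcl3 and Cxcl5, the value on M1 replicate 1 lay under those of M1 replicate 2 and both I1 arrays. This is not particular to these genes, since Tnfaip3, Adam10 and Ackr3, given above, were also lowest on that array. Its differences of 0.98 ± 0.86 and 1.69 ± 0.86 did not pass (limma adjusted p = 0.511 and 0.56).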
